A study of Arabidopsis thaliana with 16 samples.

Results

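AT3G28770, AT3G28780, AT3G28790, AT3G28810, AT3G28820, AT3G28830, AT3G28840 and AT3G28980 are 8 Arabidopsis loci of chromosome 3 whose products all carry DUF1216, a domain of unknown function. They were taken by locus number from the deposited tables, which hold all 8 among 33681 genes. The loci were selected on readouts of these same libraries, since AT3G28830 and AT3G28980 had stood among the lowest genes of bhlh89,91 against Col-0 in low light. For that reason the low-light genotype difference, the light response of Col-0 and the difference between the light responses are described here by their values, with no p-value and no count of calls for the loci. bhlh89,91 against Col-0 in normal light and the light response of bhlh89,91 were tested, although each shares libraries with those comparisons.

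Whole flower buds from before pollen mitosis I (anther stages 1 to 10) were sequenced in 4 groups of 4 biological replicates. The groups were bhlh89,91 in low light, bhlh89,91 in normal light, Col-0 in low light and Col-0 in normal light. bhlh89,91 is a double T-DNA insertion mutant in the Col-0 background, with inserts in the first exons of bHLH89 (SALK-123106) and bHLH91 (GK-345C06), which encode partly redundant anther transcription factors, while bHLH10, the third of these genes, was left intact. Low light was 50 µmol m–2 s–1 (measured at 53 ± 5, SD) under netting from the onset of flowering, against 200 µmol m–2 s–1 (measured at 205 ± 8.6, SD) in normal light, in long days. The mutant is represented by a single insertion allele of each gene. Libraries are numbered here as the columns of the deposited tables are, because these numbers could not be matched to the replicate numbers of the samples.

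The anther wall is lined by the tapetum, a secretory cell layer that feeds the microspores, supplies the sporopollenin precursors of the exine and, as it breaks down, loads lipids and proteins onto the pollen surface as pollen coat. DYT1, TDF1, AMS, MS188 and MS1 act in sequence to control these steps, and bHLH10, bHLH89 and bHLH91 act together with DYT1. No biochemical role is established for DUF1216 proteins. The reference annotation (RefSeq, TAIR10.1) calls AT3G28770, AT3G28780 and AT3G28790 putative transmembrane proteins, AT3G28810, AT3G28820 and AT3G28980 mediator subunit-like, AT3G28830 mucin-like and AT3G28840 hypothetical, and a note on AT3G28780 mentions pollen exine formation. These names are annotations by similarity. Since whole buds were used, the data do not show in which organ the loci were transcribed, and the description as anther genes could not be checked. In bulk buds, fewer cells of a type and less RNA per cell cannot be told apart.

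By the order of annotated genes, AT3G28770 to AT3G28840 formed a run of 7 of the 8 loci with 1 other gene among them, AT3G28785, which had 0 estimated counts in all libraries. AT3G28980 lay apart from this run, with 33 other genes between it and AT3G28840. The predicted proteins ranged from 391 residues for AT3G28840 to 2081 residues for AT3G28770, and the longest transcripts had 2 or 3 exons. None of the 8 overlapped another annotated gene. Of the 31-base words in their transcripts, 43.8% in AT3G28810 and 47.4% in AT3G28820 also occurred in other genes, in each case within the family, so read counts of this pair are uncertain. The share was 4.29% in AT3G28980 and 0.221% in AT3G28790, and it was 0% in AT3G28770, AT3G28780, AT3G28830 and AT3G28840.

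Library totals ran from 20419619 to 23346158 estimated counts. Transcripts of the targeted genes were still counted: bHLH89 was at 11.1 to 19.7 TPM in bhlh89,91 and 27.7 to 32.7 TPM in Col-0 in low light, and at 18.6 to 24.5 TPM in bhlh89,91 and 41.5 to 51.3 TPM in Col-0 in normal light, while bHLH91 differed less. By qRT–PCR of inflorescences in normal light, the paper reports far stronger reductions of both genes in this mutant, with bHLH91 the more reduced. The TPM per gene does not show whether the transcripts counted were intact. Col-0 normal light library 3 stood apart. In it, 70 of the 21309 tested genes were at least 8-fold above each of the other 3 Col-0 normal light libraries, against 0 to 10 genes in the same count for the other 15 libraries. Of the 70 genes, 54 were also higher in every Col-0 low light library than in the other 3 Col-0 normal light libraries. AT3G28780, AT3G28790, AT3G28830 and AT3G28980 were among the 70. For the last 3, each log2FC of the edgeR fit to all libraries that rests on this library is also given without it. AT3G28780 was not tested without it.

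The 8 loci fell into 4 kinds by level. AT3G28790, AT3G28830 and AT3G28980 were near 0 TPM in 11 libraries and reached 2.31 to 31.7 TPM in the other 5, namely the 4 Col-0 low light libraries and Col-0 normal light library 3. AT3G28770 was expressed at a low level in every library. AT3G28780 was counted in Col-0 normal light library 3 and hardly elsewhere. AT3G28810, AT3G28820 and AT3G28840 stayed under 1 CPM (a count scaled to library size) in each library and were not tested. Thus 5 of the 8 loci passed the filter of 1 CPM in at least 1 library, and AT3G28780 passed it only through Col-0 normal light library 3. The plot of TPM by locus shows these patterns library by library.

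**Figure D1:**
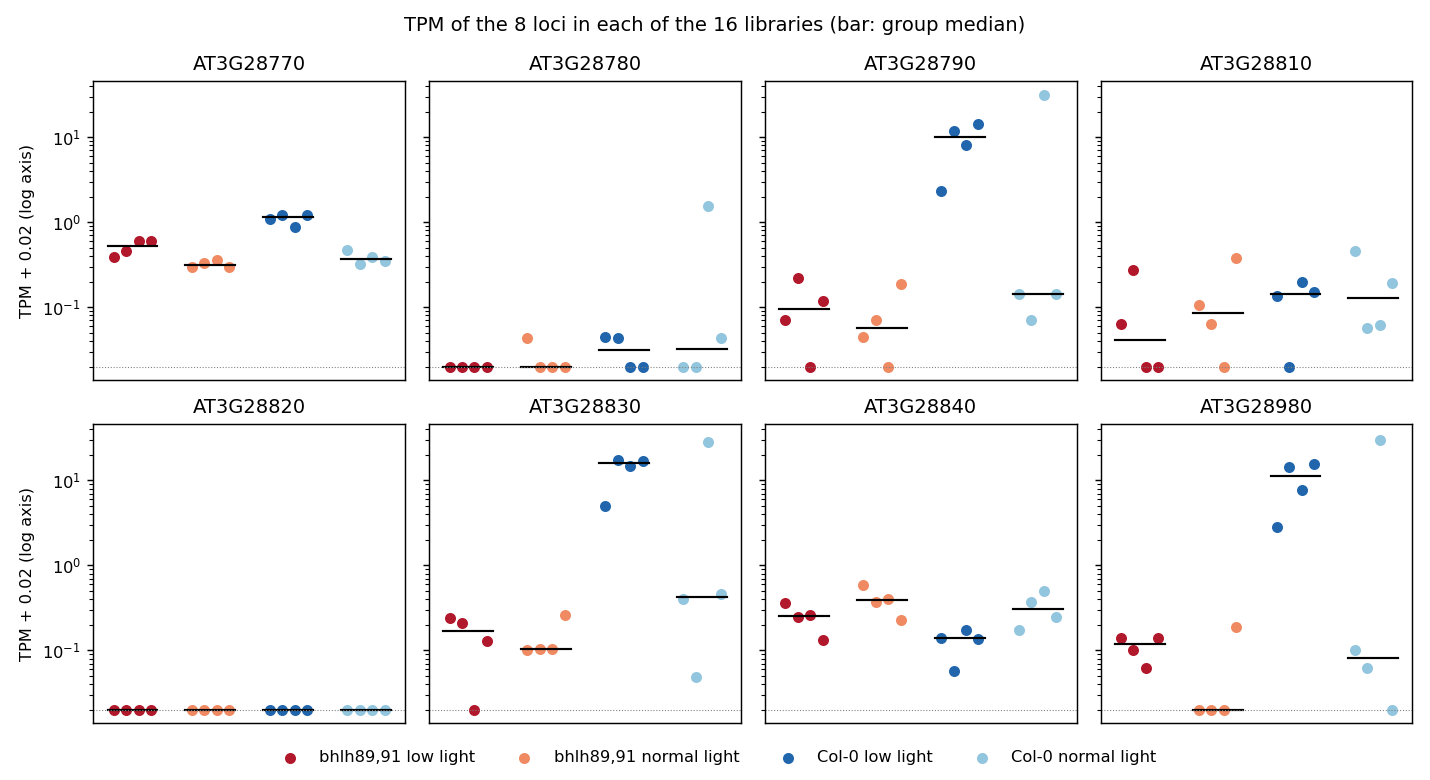
TPM of each of the 8 loci in the 16 libraries, with 0.02 added so that 0 can be drawn on a log axis (dotted line: 0 TPM). Points are libraries 1 to 4 of a group from left to right, and bars are group medians; AT3G28790, AT3G28830 and AT3G28980 are high in the 4 Col-0 low light libraries and in Col-0 normal light library 3, which reached 31.7, 28.2 and 29.9 TPM.

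AT3G28830, the locus with the mucin-like annotation, had 0.22, 0.192, 0 and 0.109 TPM in bhlh89,91 in low light, against 4.96, 17.5, 14.7 and 17.1 TPM in Col-0 in low light. In normal light it had 0.0823, 0.0831, 0.0829 and 0.243 TPM in bhlh89,91, against 0.381, 0.0282, 28.2 and 0.436 TPM in Col-0. No mutant library in either light condition came near the Col-0 low light range, and Col-0 in normal light held both the highest library of all and 3 libraries close to the mutant level. In estimated counts, AT3G28830 summed to 19 over the 4 bhlh89,91 low light libraries and to 1960 over the 4 Col-0 low light libraries. The ratio of these sums per effective library size was 0.00979 (95% counting interval, exact, 0.00588 to 0.0153). Such intervals cover counting error only and not the spread between plants.

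AT3G28790, annotated as a putative transmembrane protein, had 0.05, 0.2, 0 and 0.0994 TPM in bhlh89,91 in low light, against 2.31, 11.7, 8.16 and 14.2 TPM in Col-0 in low light. In normal light it had 0.025, 0.0505, 0 and 0.166 TPM in bhlh89,91, against 0.124, 0.0513, 31.7 and 0.124 TPM in Col-0. The low light groups did not overlap, and the lowest Col-0 low light library was library 1, as for AT3G28830. The sums in low light were 14 estimated counts in bhlh89,91 and 1441 in Col-0, a ratio of 0.00981 (0.00535 to 0.0165).

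AT3G28980, the locus away from the run, had 0.121, 0.0808, 0.0421 and 0.12 TPM in bhlh89,91 in low light, against 2.79, 14.5, 7.8 and 15.4 TPM in Col-0 in low light. In normal light it had 0, 0, 0 and 0.171 TPM in bhlh89,91, against 0.0802, 0.0414, 29.9 and 0 TPM in Col-0. It therefore followed the same libraries as AT3G28790 and AT3G28830 despite the 33 genes between. The sums in low light were 9 estimated counts in bhlh89,91 and 1041 in Col-0, a ratio of 0.00873 (0.00398 to 0.0166).

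Among the 5 libraries in which these 3 loci were high, their proportions to each other shifted little compared with the change in level. The TPM of AT3G28790 was 0.466 to 1.13 times that of AT3G28830, and the TPM of AT3G28980 was 0.53 to 1.06 times that of AT3G28830. In both cases the highest proportion was in Col-0 normal light library 3. Summed over the 3 loci, the 5 libraries held 10.1 to 89.8 TPM and the other 11 libraries 0.0421 to 0.586 TPM.

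AT3G28770, which encodes the longest of the predicted proteins, behaved differently. It had 0.367, 0.444, 0.587 and 0.579 TPM in bhlh89,91 in low light, against 1.08, 1.21, 0.865 and 1.21 TPM in Col-0 in low light. In normal light it had 0.28, 0.308, 0.343 and 0.275 TPM in bhlh89,91, against 0.446, 0.306, 0.367 and 0.33 TPM in Col-0. Here Col-0 normal light library 3 lay inside the range of its group. Ordered by mean TPM, the groups were Col-0 low light (1.09 ± 0.162, SD, n = 4), bhlh89,91 low light (0.494 ± 0.107), Col-0 normal light (0.362 ± 0.0615) and bhlh89,91 normal light (0.301 ± 0.0314). The ranges of bhlh89,91 low light and Col-0 normal light overlapped, as did those of the pair in normal light.

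AT3G28780, the locus whose note mentions exine formation, had 0 estimated counts in all 4 bhlh89,91 low light libraries and 1, 1, 0 and 0 in the Col-0 low light libraries. In normal light it had 1, 0, 0 and 0 estimated counts in bhlh89,91, against 0, 0, 65 and 1 in Col-0. The 65 counts of Col-0 normal light library 3 amounted to 1.52 TPM. In low light both genotypes were at or under a floor of 3 counts, so no fold is given, and the locus did not follow AT3G28790, AT3G28830 and AT3G28980 into the Col-0 low light libraries.

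The remaining loci were at the limit of detection. AT3G28820 had 0 estimated counts in all 16 libraries. AT3G28810 summed to 7 counts in bhlh89,91 and 10 counts in Col-0 in low light, and to 11 counts in bhlh89,91 and 17 counts in Col-0 in normal light, with overlapping libraries. Both of these loci share much of their sequence within the family, and a difference was not detectable at this depth.

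AT3G28840 had its highest mean in bhlh89,91 in normal light and its lowest in Col-0 in low light, where AT3G28790, AT3G28830 and AT3G28980 were high. It had 9, 6, 6 and 3 estimated counts in bhlh89,91 in low light, against 3, 1, 4 and 3 in Col-0 in low light, and 15, 9, 10 and 5 in bhlh89,91 in normal light, against 4, 9, 13 and 6 in Col-0 in normal light. The ratio of sums was 2.2 for bhlh89,91 against Col-0 in low light (24 against 11 counts, counting interval 1.04 to 4.98) and 0.352 for low against normal light in Col-0 (11 against 32 counts, 0.16 to 0.718). In both cases the libraries of the groups overlapped, and the locus was not tested.

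The genotype comparison in normal light asks whether the loci differed between bhlh89,91 and Col-0 without shading, and none of its libraries entered the low-light genotype comparison. Its Col-0 libraries do enter the light response of Col-0, so it is not fully separate from the comparisons set aside above. Over all tested genes, edgeR's quasi-likelihood F test called 338 of 21309 (1.59%). A call took a Benjamini-Hochberg adjusted p below 0.01 together with a log2FC of 1 or more in size. Among these 8 libraries, AT3G28780, AT3G28790, AT3G28830 and AT3G28980 reached 1 CPM only in Col-0 normal light library 3, so no count over the loci is read here. The fitted log2FC was -7.03 ± 1.99 (SE) for AT3G28790 (adjusted p = 0.0247), -5.87 ± 1.64 for AT3G28830 (0.0234) and -7.38 ± 2.15 for AT3G28980 (0.0281). For AT3G28770 it was -0.25 ± 0.19 (0.395). None of these 4 values was a call with edgeR or limma-voom, while DESeq2 called AT3G28790 and AT3G28980. AT3G28780, which passed the filter through that library alone, had -5.40 ± 1.96 as a description. The 4 large values, and the adjusted p given for 3 of them, rested on Col-0 normal light library 3, so no genotype difference is read from them. That library was higher than all 4 mutant libraries, while the other 3 Col-0 libraries were at 0.436 TPM or less for these loci.

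Without Col-0 normal light library 3, 332 of 21269 genes (1.56%) were called in this comparison, and AT3G28780 was no longer tested. The log2FC was then -0.75 ± 1.36 for AT3G28790 (edgeR, adjusted p = 0.756), -1.21 ± 0.94 for AT3G28830 (0.42), 0.045 ± 1.90 for AT3G28980 (0.991) and -0.24 ± 0.21 for AT3G28770 (0.485). AT3G28790, AT3G28830 and AT3G28980 were at 0.723 CPM or less in every library then compared. They passed the filter only through Col-0 low light libraries, so these adjusted p rest on few counts. For AT3G28980 the direction turned. For AT3G28830 the ratio of sums was 0.425 (counting interval 0.221 to 0.792, 17 against 31 counts). Its libraries overlapped, with 3, 3, 3 and 8 counts in bhlh89,91 against 14, 1 and 16 in Col-0 libraries 1, 2 and 4. The interval leaves out this spread between libraries, so no difference is read from it. For AT3G28790 the ratio was 0.581 (0.216 to 1.5, 9 against 12 counts). AT3G28980, with 4 counts in bhlh89,91 against 3 in the remaining Col-0 libraries, could not be resolved at this depth (ratio 1.03, interval 0.175 to 7.05).

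The light response within bhlh89,91 was the other comparison tested, and its low light libraries were also part of the comparison that had brought up the loci. Here edgeR called 728 of 21309 genes (3.42%). AT3G28770 was higher in every low light library than in any normal light library (231 against 139 estimated counts in all). Its log2FC was 0.73 ± 0.18 (edgeR, adjusted p = 0.00625), which is under the limit of 1 on the log2 scale. Over the alternative methods and filters it ran from 0.20 to 0.73, with adjusted p of those fits up to 0.078. With each library left out it ran from 0.63 to 0.86 (edgeR, adjusted p up to 0.0229). AT3G28780, AT3G28790, AT3G28830 and AT3G28980 had passed the filter only through Col-0 libraries and stayed at 0.386 CPM or less in the mutant, so they are described by counts and not by a test. AT3G28790 had sums of 14 against 9, AT3G28830 of 19 against 17 and AT3G28980 of 9 against 4 counts in low against normal light. The counting intervals of the ratios were 0.624 to 4.05, 0.547 to 2.28 and 0.625 to 9.95 in that order, and no response was detectable at this depth.

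In the comparisons used to choose the loci, the same fit gave the following values, which are descriptions. For bhlh89,91 against Col-0 in low light, 1317 of 21309 genes (6.18%) were called. Since the loci had been picked for low values here, their calls are not counted. The log2FC was -6.61 ± 1.85 for AT3G28790, -6.63 ± 1.57 for AT3G28830, -6.75 ± 1.88 for AT3G28980 and -1.12 ± 0.17 for AT3G28770. AT3G28770 thus differed by a much smaller factor than the other 3 loci, with a ratio of sums of 0.459 (0.391 to 0.537).

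For low against normal light in Col-0, 1842 of 21309 genes (8.64%) were called. AT3G28770 had a log2FC of 1.60 ± 0.17, AT3G28790 0.19 ± 1.08, AT3G28830 0.91 ± 0.97 and AT3G28980 0.44 ± 1.09. Without Col-0 normal light library 3, 1864 of 21269 genes (8.76%) were called, and the log2FC was 6.47 ± 0.74 for AT3G28790, 5.57 ± 0.57 for AT3G28830, 7.87 ± 0.84 for AT3G28980 and 1.61 ± 0.20 for AT3G28770. The mean of AT3G28830 in Col-0 was 13.6 ± 5.87 TPM in low light (SD, n = 4), against 7.26 ± 14 TPM in normal light with all 4 libraries and 0.282 ± 0.221 TPM with the 3 others. For the difference of the light responses, 496 of 21309 genes (2.33%) were called, and AT3G28770 had -0.87 ± 0.25. The value of AT3G28790 was -5.87 ± 1.90 without that library and 0.41 ± 4.07 with it. In the same order, the values were -5.43 and -0.76 for AT3G28830, and -6.80 and 0.63 for AT3G28980.

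**Figure D2:**
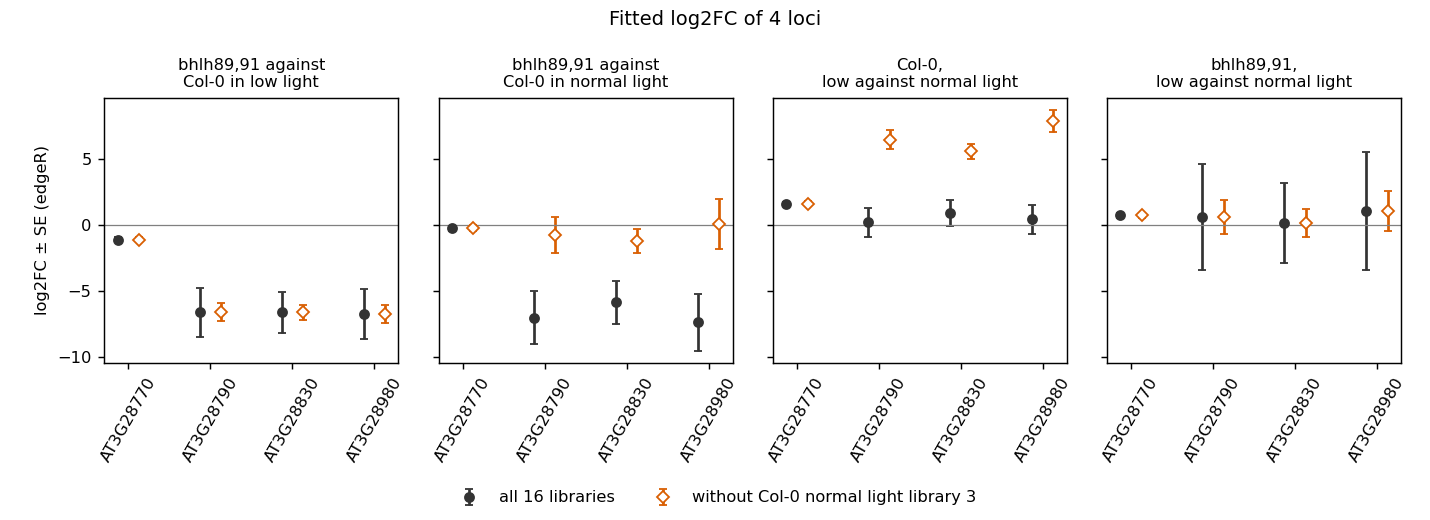
Fitted log2FC with its SE (edgeR) of AT3G28770, AT3G28790, AT3G28830 and AT3G28980 in 4 comparisons, from all 16 libraries (filled circles) and without Col-0 normal light library 3 (open diamonds). Leaving out that library moves the normal light genotype difference of AT3G28830 to -1.21, against -5.87 with it, and the Col-0 light response of AT3G28830 to 5.57, against 0.91 with it. The low light genotype difference, -6.63, does not use that library.

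Expression along the chromosome was examined next, since 7 of the loci lie side by side. Of 36 other loci numbered between AT3G28750 and AT3G29000, 19 were tested and 6 had no counts in any library. None of the 19 was called by edgeR, DESeq2 or limma-voom in the low light genotype comparison (12 had an unadjusted p under 0.05, 9 of them higher in bhlh89,91), and their log2FCs ran from -0.54 to 3.18 with a median of 0.19, beside 0.0043 over all tested genes. With all libraries, AT3G28890 (RLP43, a receptor-like protein) was the only one called in any comparison, lower in low than in normal light in each genotype, at -1.74 in bhlh89,91 (edgeR, adjusted p = 0.000117) and -1.66 in Col-0 (3.62e-05). Without Col-0 normal light library 3, AT3G28915, annotated as a pseudogene, was also called, higher in bhlh89,91 in low light (log2FC 3.18 ± 0.89, edgeR, adjusted p = 0.00829). The summed TPM of the 36 neighbours ran from 658 to 776 over the 16 libraries, with Col-0 normal light library 3 at 738, inside the range of 717 to 757 of the other 3. AT3G28750, whose annotation note also names DUF1216, had a mean of 1.78 ± 1.05 TPM in bhlh89,91 and 1.41 ± 0.346 TPM in Col-0 in low light.

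**Figure D3:**
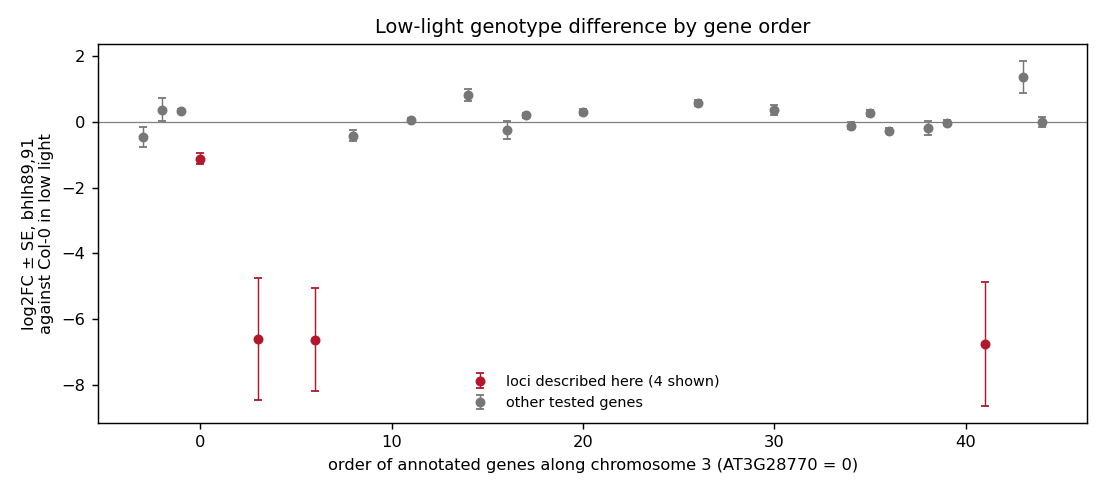
log2FC with its SE of bhlh89,91 against Col-0 in low light for tested genes of the RefSeq annotation, by their order along chromosome 3 counted from AT3G28770. AT3G28770, AT3G28790, AT3G28830 and AT3G28980 (red) lie between -1.12 and -6.75, while the tested genes drawn between them (grey) lie between -0.42 and 0.81. AT3G28780 is left out because both groups were at the count floor. Tested loci absent from that gene order are not drawn, among them AT3G28915 at 3.18 and AT3G28945 at -0.54.

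Other genes of the family were sought by product. AT5G39870 had 1 estimated count in all libraries together. AT5G48575 had 4 counts in bhlh89,91 and 2 in Col-0 in low light, and 7 in bhlh89,91 and 3 in Col-0 in normal light. AT5G61720 was the only further one to pass the filter, and it did so only through Col-0 normal light library 3 (3.85 CPM). It summed to 20 counts in bhlh89,91 and 64 in Col-0 in low light. The groups were barely apart there, with up to 12 counts in a mutant library and at least 13 in a Col-0 library. In normal light it summed to 18 in bhlh89,91 and 124 in Col-0, of which 89 fell in Col-0 normal light library 3. Its log2FC for bhlh89,91 against Col-0 was -2.68 ± 0.82 in normal light and -1.64 ± 0.86 in low light. Both values are descriptions, and neither was a call. The normal light value includes Col-0 normal light library 3.

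The genes most like the loci over the 16 libraries were ranked by Pearson's r between log2-CPM and the mean log2-CPM of the 5 tested loci, among 16415 other genes with a mean of at least 5 CPM. The highest were AT3G07850 (r = 0.987) and AT3G14040 (0.976), both pectin lyase-like proteins, a superfamily that includes pectin-degrading enzymes of the cell wall. They were followed by sks13 (0.932), a multicopper oxidase-like protein, AT5G44400 (0.908), a berberine bridge enzyme-like protein, and AT4G10260 (0.894), a pfkB-like carbohydrate kinase. Reads that AT3G07850 and AT3G14040 may share were not examined. By Spearman's rho 3 of these 5 remained among the highest 5, while AT5G44400 fell to rank 1557 (rho = 0.55) and AT4G10260 to rank 2915 (0.471). These coefficients are descriptions over 16 libraries that share groups and fall into 5 high and 11 low ones, so they carry no test.

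AT3G07850 had 14, 12, 3 and 9 estimated counts in bhlh89,91 in low light, against 310, 1259, 837 and 1294 in Col-0 in low light. In normal light it had 3, 2, 2 and 7 in bhlh89,91, against 19, 2, 1496 and 7 in Col-0. It was thus high in the same 5 libraries as AT3G28830 and highest in Col-0 normal light library 3. AT5G44400 and AT4G10260 were high in the same 5 libraries too, but with 258 and 195 counts in Col-0 normal light library 3 they stayed under every Col-0 low light library, whose counts were 329 to 1205 for AT5G44400 and 232 to 529 for AT4G10260.

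**Figure D4:**
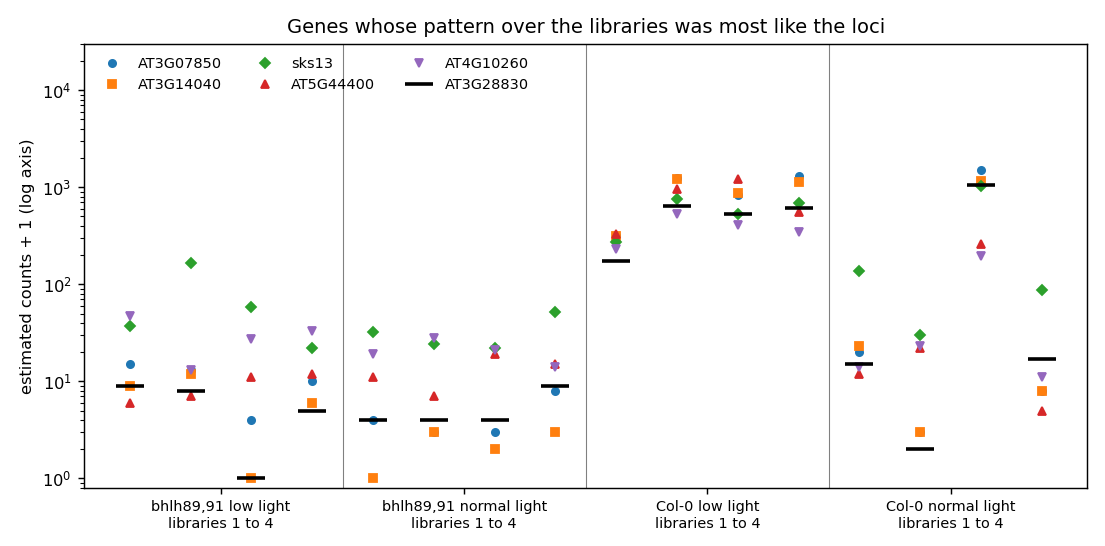
Estimated counts, with 1 added for the log axis, of the 5 genes most like the loci by Pearson's r and of AT3G28830 (black dashes) in the 16 libraries. All 6 are high in the 4 Col-0 low light libraries and in Col-0 normal light library 3; AT3G07850 reaches 1496 counts there and AT3G28830 1052, while AT5G44400 stays at 258.

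The tapetum lists were set beside the loci. Early tapetum and exine genes (A9, A6, ACOS5, LAP6, LAP5, TKPR1, MS2, CYP703A2, CYP704B1 and ABCG26) summed to 2356 to 4244 TPM in bhlh89,91 and 3014 to 3572 TPM in Col-0 in low light, and to 4388 to 5538 TPM in bhlh89,91 and 4696 to 6310 TPM in Col-0 in normal light. All 16 libraries thus held tapetal transcripts in quantity, also those in which AT3G28790, AT3G28830 and AT3G28980 were near 0. Of the 10 genes, 1 was called for bhlh89,91 against Col-0 in low light (MS2, a fatty acyl reductase of exine formation, log2FC -1.05 ± 0.20, edgeR adjusted p = 0.000533) and 0 in normal light (3 at an unadjusted p under 0.05, 0 by DESeq2 and limma-voom). In the light response of Col-0, 2 were called, both lower in low light.

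Of the 8 tapetum regulators, 1 was called in the low light genotype comparison. This was TDF1, a MYB factor that acts downstream of DYT1, at a log2FC of 1.00 ± 0.17 (edgeR, adjusted p = 0.000146), at the limit of a call (0 to 3 regulators were called with each library left out). DYT1 had 0.94 ± 0.24 (0.00465) and AMS 0.90 ± 0.14 (8.02e-05), both under the fold limit, whereas bHLH89, which carries an insert, had -0.90 ± 0.13 (3.99e-05). None of these regulators changed by a factor like that of AT3G28830, and the median over the list was 0.32, beside 0.0043 over all tested genes.

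Late tapetum and pollen coat genes (the lipases EXL4, EXL5 and EXL6, the glucosidase BGLU20 and the oleosins GRP14 and GRP16 to GRP20) moved with the loci in low light. Of the 10, 6 (against 6.18% of all tested genes called) fell in bhlh89,91 against Col-0 in low light and 0 rose, with a median log2FC of -3.55, beside 0.0043 over all tested genes. From these same libraries, the paper had listed EXL4, EXL5, EXL6, BGLU20 and GRP17 as raised by low light in Col-0 and unchanged in the mutant. The counts and adjusted p of this list are therefore descriptions and not independent evidence. EXL4 was lowest at -5.65 ± 1.53 (edgeR, adjusted p = 0.00622), followed by GRP16 at -5.14 ± 1.48 (0.00941) and EXL5 at -3.94 ± 0.58 (5.42e-05). The count was 3 without bhlh89,91 low light library 2 and 9 without Col-0 normal light library 3. In Col-0, 7 of the 10 rose in low against normal light, where 8.64% of all tested genes were called. With each library left out this count was 5 to 10, lower than 7 for 8 of the 16 libraries and 10 without Col-0 normal light library 3. The summed TPM of the 10 genes ran from 93.5 to 511 in bhlh89,91 and from 2194 to 4168 in Col-0 in low light.

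In normal light, the late tapetum genes and the loci parted in some libraries. The 10 genes summed to 333, 845, 625 and 45.4 TPM in the 4 bhlh89,91 libraries, against 43.3, 189, 672 and 12.9 TPM in the 4 Col-0 libraries. Thus bhlh89,91 normal light library 2 held more late tapetum transcript than Col-0 normal light library 3 (845 against 672 TPM), and library 3 of the mutant held slightly less (625 TPM). EXL4 alone was at 78 and 50.4 TPM in these mutant libraries, against 83.5 TPM in that Col-0 library. AT3G28790, AT3G28830 and AT3G28980 together were at 0.134 and 0.0829 TPM in the same mutant libraries, against 89.8 TPM in Col-0 normal light library 3. These are values of single libraries, and the part of late tapetum amount in the values of the loci was not tested. None of the 10 late tapetum genes was called between the genotypes in normal light (4 at an unadjusted p under 0.05, 3 of them higher in bhlh89,91, and 0 called by DESeq2 and limma-voom). Without Col-0 normal light library 3, 1 of the 10 was called, GRP14, higher in bhlh89,91 at a log2FC of 5.19 ± 0.94 (edgeR, adjusted p = 0.00288).

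As a share of the late tapetum sum, the 3 loci amounted to 13.4% in Col-0 normal light library 3 and 0.392% to 2.13% in the Col-0 low light libraries. Col-0 normal light libraries 1, 2 and 4 were at 1.35%, 0.0641% and 4.34%, from late tapetum sums of 43.3, 189 and 12.9 TPM. Library 4 was thus above every Col-0 low light library, and library 2 lay inside the mutant range. In bhlh89,91 the share was 0.0172% to 0.506% in low light and 0.0133% to 1.28% in normal light. The highest of these mutant values belonged to bhlh89,91 normal light library 4, where the late tapetum sum was only 45.4 TPM, and the shares of libraries with so little late tapetum transcript were less certain. The plot of the 3 loci against the late tapetum sum shows the mutant libraries along the bottom over a wide range of that sum. Col-0 normal light libraries 1, 2 and 4 also lie at the bottom.

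**Figure D5:**
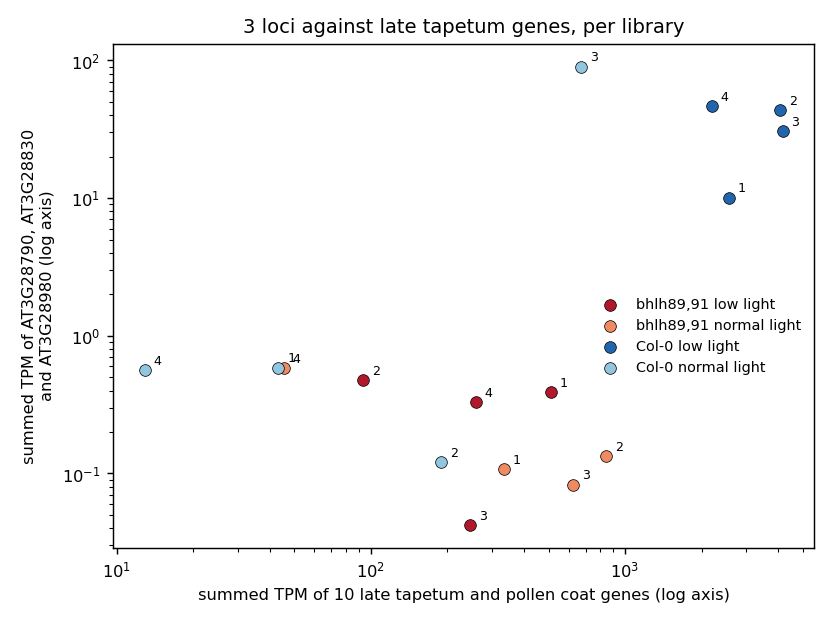
Summed TPM of AT3G28790, AT3G28830 and AT3G28980 against the summed TPM of 10 late tapetum and pollen coat genes in each library, both on log axes, with library numbers beside the points. Col-0 normal light library 3 lies at 672 and 89.8 TPM, and bhlh89,91 normal light library 2 at 845 and 0.134 TPM.

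Markers of other cells in the buds were compared in the same way. Late pollen genes (10 loci) summed to 1.9 to 15.7 TPM in bhlh89,91 and 7.14 to 13 TPM in Col-0 in low light, and to 3.67 to 7.52 TPM in bhlh89,91 in normal light. In Col-0 in normal light they summed to 28.1 TPM in library 3 and 4.42 to 10.4 TPM in the others. Of the 10 loci 9 were tested, and for bhlh89,91 against Col-0 in low light 1 was called, TIP5-1, lower at -4.20 ± 1.06 (edgeR, adjusted p = 0.00384), with a median log2FC of -0.83 over the 9. Without Col-0 normal light library 3, 2 of 7 were called, TIP5-1 and ADF7, both lower. ADF7, an actin-depolymerizing factor of pollen, and the pollen aquaporins TIP5-1 and TIP1-3 were highest in the same 5 libraries as the loci, and the pectin methylesterases VGD1 and PPME1 were highest in Col-0 normal light library 3. VGDH1, by contrast, was highest in bhlh89,91 low light library 2 (1.63 TPM), CPK34 stayed at 0.24 TPM or less in all libraries, and AGP6 averaged 1.04 ± 0.0617 TPM in low light and 2.47 ± 0.989 TPM in normal light in Col-0. TIP1-3 had 0.248 to 0.664 TPM in the Col-0 low light libraries and 1.78 TPM in Col-0 normal light library 3, and it was listed at 0 in the other Col-0 normal light libraries and in all bhlh89,91 low light libraries. AGP6 and AGP11, both arabinogalactan proteins of pollen, were present in all 16 libraries, at 0.51 TPM or more. The part of pollen stage in the values of the loci was not tested.

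Meiocyte genes (7 loci) summed to 46.9 to 57.4 TPM in bhlh89,91 and 41 to 44.5 TPM in Col-0 in low light, and to 58.7 to 67.1 TPM in bhlh89,91 and 61.3 to 66.7 TPM in Col-0 in normal light, with Col-0 normal light library 3 at 64.1 TPM. Carpel and ovule genes (5 loci) summed to 142 to 179 TPM in bhlh89,91 and 156 to 172 TPM in Col-0 in low light, and to 127 to 144 TPM in bhlh89,91 and 146 to 160 TPM in Col-0 in normal light. Sepal and petal genes (3 loci) summed to 573 to 652 TPM in bhlh89,91 and 524 to 540 TPM in Col-0 in low light, and to 711 to 735 TPM in bhlh89,91 and 636 to 699 TPM in Col-0 in normal light. Between the genotypes in low light, 0 genes of these 3 lists were called by edgeR, DESeq2 or limma-voom (5 of 15 at an unadjusted p under 0.05). In the light response of Col-0, 1 of the 15 was called, INO, a YABBY factor of the outer ovule integument, at a log2FC of 2.08 ± 0.46 (edgeR, adjusted p = 0.00121). INO had 8.3, 2.05, 6.04 and 10.8 TPM in bhlh89,91 and 3.58, 7.93, 6.15 and 4.4 TPM in Col-0 in low light, and 3.06, 2.55, 2.7 and 1.78 TPM in bhlh89,91 and 1.1, 0.971, 2.46 and 0.678 TPM in Col-0 in normal light. Within Col-0 in normal light it was thus highest in library 3, as the loci were, but in the mutant it was not near 0, and the mutant libraries of the 2 light conditions overlapped. STK (0.76 ± 0.16) and SHP1 (0.83 ± 0.20) were also higher in low light in Col-0, under the fold limit. The part of ovule stage in the values of the loci was not tested.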

How the data were processed

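RNA of 16 bud libraries (4 groups of 4) had been sequenced as 100 bp paired reads from poly-A RNA, not stated to be stranded. The authors ran Salmon against the AtRTD2 transcripts, combined transcripts per gene through tximport (option length-scaled TPM), and deposited estimated counts and TPM per gene. The genome build is not given in the sources used here, so no coordinates are printed, and RefSeq TAIR10.1 served for names, gene order and shared words. The members, lists and tests were chosen with earlier results of these data known.

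Estimated counts were rounded and tested in R 4.3.3 with edgeR 4.0.16 (TMM, 1 mean per group, 12 residual degrees of freedom, quasi-likelihood F test, Benjamini-Hochberg adjustment over the 21309 genes that reached 1 CPM in any library). A call needed an adjusted p below 0.01 together with a log2FC of 1 or more in size. Each SE was obtained as the size of the log2FC over the root of its F value. Counting intervals are exact binomial (95%) on summed rounded counts, scaled by effective library size, and a group at 3 counts or fewer per library counts as being at the floor. Log2-CPM used a prior count of 2. Alternatives were limma-voom and limma-trend (limma 3.58.1, on log2(TPM + 1) and log2(TPM + 0.1)), DESeq2 1.42.0, RLE factors, library size alone, no filter, 1 CPM in 4 libraries, only the groups compared, an adjusted p under 0.05, CPM in place of TPM, Spearman's rho in place of Pearson's r and each library left out. A robust edgeR fit was added after seeing the data. The scripts were tested on simulated data.

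Named genes are the 8 loci, other genes with DUF1216 in their product, called neighbours, the 5 genes most like the loci, and from each tapetum list at most 3 with the largest absolute log2FC in bhlh89,91 against Col-0 in low light plus any that goes the other way. MS1, MS188, other list members and marker genes appear as background or were named after their values were seen. That holds for EXL4 in normal light, ADF7, TIP5-1, TIP1-3, VGD1, PPME1, VGDH1, CPK34, AGP6, AGP11, GRP14, INO, STK, SHP1 and AT3G28915.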

Additional observations from a re-analysis of the deposited data

Results flagged for a closer look

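In groups of 4 libraries, a library was singled out where its gap to the next one, as a share of the range of its group, exceeded Dixon's 95% critical value. Of 31 groups examined over the 8 loci and AT5G61720, 9 met this. Chance would give about 1.55 for independent groups of normally distributed values. Groups near 0 counts and loci that rise in the same libraries do not meet that condition, so no excess is read from it. Col-0 normal light library 3 accounted for 5 of them, at 1.52 TPM for AT3G28780, 31.7 TPM for AT3G28790, 28.2 TPM for AT3G28830, 29.9 TPM for AT3G28980 and 3.09 TPM for AT5G61720, each the highest of the 16 libraries. bhlh89,91 normal light library 4 was highest in its group for AT3G28830 (0.243 TPM) and AT3G28980 (0.171 TPM). The other 2 were AT3G28780 in bhlh89,91 normal light library 1 (0.0238 TPM, from 1 count) and AT3G28810 in bhlh89,91 low light library 2 (0.256 TPM, from 6 counts).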

How the results depend on the processing

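For bhlh89,91 against Col-0 in normal light, edgeR called 0 loci, against 2 with DESeq2 (AT3G28790 at -7.08, adjusted p = 0.000375, and AT3G28980 at -7.50, 0.00183) and 3 at an adjusted p under 0.05. All of these reached 1 CPM there only in Col-0 normal light library 3. The counts and adjusted p therefore rest on that library, and no genotype difference is read from them. The share of all tested genes called under these settings was not set beside the counts. Without that library, the edgeR log2FC was -0.75 for AT3G28790, -1.21 for AT3G28830 and 0.045 for AT3G28980. The log2FC of AT3G28980 in this comparison ran from -10.58 to 0.045 with each library left out. For low against normal light in bhlh89,91, AT3G28830 turned to -0.32 with limma-voom and to -0.025 on log2(TPM + 0.1), and ran from -0.20 to 0.65 with each library left out, and AT3G28790 from -0.17 to 1.70. In the comparisons that chose the loci, values are descriptions: with each library left out, the log2FC of AT3G28830 ran from -6.98 to -6.24 for bhlh89,91 against Col-0 in low light and from 0.50 to 5.57 for low against normal light in Col-0. The cause of these moves was not tested. AT3G28780 was not tested without Col-0 normal light library 3. No paired analysis was possible because the columns of the deposited tables do not carry the replicate numbers of the samples. Low counts limit the mutant libraries, where AT3G28790, AT3G28830 and AT3G28980 had 0 to 8 counts each.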
